A study of Arabidopsis thaliana with 16 samples.

Results

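The genes described here are 3 Arabidopsis thaliana genes for enzymes that cut cell-wall polymers: AT3G47540 and AT2G43570 (CHI) of the chitinase family, and AT4G16260 of the beta-1,3-glucanase family. They were taken by locus from the probe annotation, as 3 of 13355 genes named there, and a single probe set names each of them. They were chosen by their measured levels, which had been seen to move with autophagy genotype, with plant age or with both, so their genotype and age values are given as a description with no test. Chitinases hydrolyse chitin, a polymer of fungal walls and insect cuticles that plants themselves do not make. Beta-1,3-glucanases hydrolyse beta-1,3-glucans, which occur in fungal walls and, as callose, in the plant's own walls and around its plasmodesmata. Several members of both families are pathogenesis-related proteins, whose transcripts accumulate after infection and during leaf senescence.

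Whole-rosette RNA was hybridised to 16 Affymetrix arrays in 8 groups of 2. Plants were the wild type Col-0, the T-DNA insertion mutant atg5 (atg5-3, SALK_02060) and the T-DNA insertion mutant atg9 (SALK_130796), each mutant being 1 line. ATG5 takes part in joining the ATG8 protein to the autophagosome membrane, and ATG9 is a membrane protein needed to form autophagosomes. The annotation used here names no probe set for either, so the mutated genes were not analysed here. All plants grew in short days of 8 h light and 16 h dark. Each genotype was harvested on low nitrate (LN, 2 mM) at 30 and at 60 days after sowing, and for 2 of the genotypes, Col-0 and atg5, high nitrate was added (HN, 10 mM), for which the labels disagree between 30 and 60 days. In every group 1 array came from each of 2 cultures grown months apart, and each array holds a pool of more than 6 plants. Values are MAS5 signals on a linear scale, a brightness per probe set that orders the arrays of 1 gene but not different genes. Differences between groups are on the log2 scale, with the standard error (SE) of a limma fit over all 16 arrays.

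The arrays had been scaled to a common trimmed mean, and their median signals ran from 154 to 254. One array stood apart at the dim end: on Col-0, LN, 30 days, culture 1 the lower quartile of all signals was 89.1, against 26.4 to 38.9 on the others. A second, atg5, LN, 60 days, culture 1, had an actin 3′ to 5′ signal ratio of 9.05, against 1.5 to 3.04. Values without these 2 arrays are given beside many of the results below. The leaf marker RCA (Rubisco activase), the 1 listed leaf gene of 7 with a named probe set, gave 17246 to 31078 on all arrays. Of 5 root markers 3 had a probe set, and their summed signal was 868 to 1329 in the 30-day LN groups, 296 to 729 at 60 days and 245 to 359.6 on HN. PYK10 made up nearly all of it, with 228 to 1311 over the arrays, and the other root genes reached at most 34.8 and 37.7. The sum was highest at 30 days on LN, where AT4G16260 was lowest, and its part in those results was not tested. None of 5 floral markers had a named probe set. In such whole-rosette RNA, fewer cells of a type and less RNA per cell cannot be told apart.

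AT3G47540 was split by genotype at 60 days and not at 30 days. On LN at 30 days its signals were 400.0 and 474.2 in Col-0 (cultures 1 and 2), 384.5 and 468.0 in atg5, and 468.9 and 527.8 in atg9. At 60 days they were 121.7 and 158.3 in Col-0, 1989.3 and 3395.4 in atg5, and 1261.0 and 1265.4 in atg9. The 3 genotypes overlapped at 30 days, and at 60 days both mutants lay above Col-0 on every array.

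At 60 days the mean signal of AT3G47540 was 19.2 times that of Col-0 in atg5 and 9.02 times in atg9, log2 differences of 4.23 ± 0.26 and 3.19 ± 0.26 (SE, n = 2 per group). At 30 days the same differences were -0.04 ± 0.26 and 0.19 ± 0.26. With age the gene went in opposite directions: 60 minus 30 days was -1.65 ± 0.26 in Col-0, 2.62 ± 0.26 in atg5 and 1.34 ± 0.26 in atg9. The 60-day split therefore has a lower Col-0 level in it as well as higher mutant levels. Between the mutants, atg9 minus atg5 was -1.04 ± 0.26 at 60 days, and their arrays did not overlap. Without the 2 arrays that stand apart, atg5 minus Col-0 at 60 days was 4.48 and the age difference in atg5 was 2.87.

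On HN the signals of AT3G47540 were 390.6 and 369.4 in Col-0 and 1051.2 and 1894.5 in atg5. Both atg5 arrays were above both Col-0 arrays, with a log2 difference of 1.89 ± 0.26. The HN Col-0 level lay close to that on LN at 30 days, whereas atg5 on HN lay between its 30-day and its 60-day LN levels. Ordered by group mean, atg5 at 60 days stood highest, followed by atg5 on HN and atg9 at 60 days, whose arrays overlapped. The 30-day groups and HN Col-0 formed a run in which each neighbour overlapped the next, and Col-0 at 60 days stood alone below it, by 1.45 on the log2 scale.

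On LN, CHI was likewise highest in the mutants at 60 days, but its 30-day levels were unsteady. At 30 days its signals were 131.3 and 21.1 in Col-0, 557.8 and 71.6 in atg5, and 152.6 and 51.8 in atg9. At 60 days they were 104.2 and 126.9 in Col-0, 5052.4 and 8056.2 in atg5, and 2325.7 and 1439.4 in atg9. In all 3 genotypes at 30 days culture 1 was above culture 2, and the pooled replicate SD of CHI was 1.16 on the log2 scale, against 0.32 for AT3G47540 and 0.63 for AT4G16260.

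The mean CHI signal at 60 days was 56.7 times that of Col-0 in atg5 and 16.3 times in atg9, log2 differences of 5.79 ± 0.91 and 3.99 ± 0.91 (SE, n = 2 per group). Among 13648 probe sets fitted, the first of these was the 16th largest rise and the second the 28th largest in its comparison. CHI was chosen on such levels, so these places only describe it and are no support. At 30 days atg5 minus Col-0 was 1.92 ± 0.91 and atg9 minus Col-0 was 0.76 ± 0.91, with overlapping arrays, and these were 3.01 and 1.84 without the 2 arrays that stand apart. With age CHI differed by 5.0 ± 0.91 in atg5 and 4.36 ± 0.91 in atg9. In Col-0 the age difference was 1.13 ± 0.91 with overlapping arrays, and it was -0.04 without Col-0, LN, 30 days, culture 2 and 2.29 without culture 1 of that group. Without the 2 arrays that stand apart, atg5 minus Col-0 at 60 days was 6.37, and the age difference was 5.57 in atg5 and 2.21 in Col-0. CHI in Col-0 thus gave no settled direction with age, where AT3G47540 was lower at 60 days on both arrays.

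On HN the CHI signals were 595.5 and 1489.7 in Col-0 and 4407.3 and 7600.0 in atg5, a log2 difference of 2.62 ± 0.91 with no overlap. The atg5 arrays on HN overlapped those on LN at 60 days. Col-0 on HN was well above Col-0 on LN at both ages and overlapped atg9 at 60 days. CHI was thus above 1000 in both mutants at 60 days on LN, and in Col-0 it passed that level on 1 HN array.

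AT4G16260 followed age in all 3 genotypes. At 30 days its signals were 20.3 and 8.3 in Col-0, 97.1 and 36.3 in atg5, and 37.4 and 21.6 in atg9. At 60 days they were 770.8 and 1407.2 in Col-0, 1590.0 and 3066.6 in atg5, and 1772.7 and 1564.0 in atg9. Every 60-day array was above every 30-day array. Both Col-0 signals at 30 days and the second atg9 signal lay below the lower quartile of their arrays, so the size of a fold against them depends on values near the bottom of the scale.

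The log2 difference between 60 and 30 days for AT4G16260 was 6.33 ± 0.56 in Col-0, 5.22 ± 0.56 in atg5 and 5.87 ± 0.56 in atg9 (SE, n = 2 per group). With 32 added to every signal, which damps differences between dim values, the 3 became 4.55, 4.58 and 4.80. Col-0 gave 6.92 and atg5 5.75 without the 2 arrays that stand apart. At 60 days the mutants exceeded Col-0 by 1.08 ± 0.56 in atg5 and 0.68 ± 0.56 in atg9. At 30 days atg5 minus Col-0 was 2.19 ± 0.56 and atg9 minus Col-0 was 1.13 ± 0.56, and with 32 added these were 1.03 and 0.41. The 30-day atg9 difference was 1.72, and the 60-day atg5 difference 1.61, without the 2 arrays that stand apart. On HN the signals were 375.6 and 454.0 in Col-0 and 1902.8 and 2881.5 in atg5, a log2 difference of 2.5 ± 0.56. HN was thus the condition in which the AT4G16260 arrays of atg5 and Col-0 were farthest apart when 32 was added, at 2.42.

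**Figure D1:**
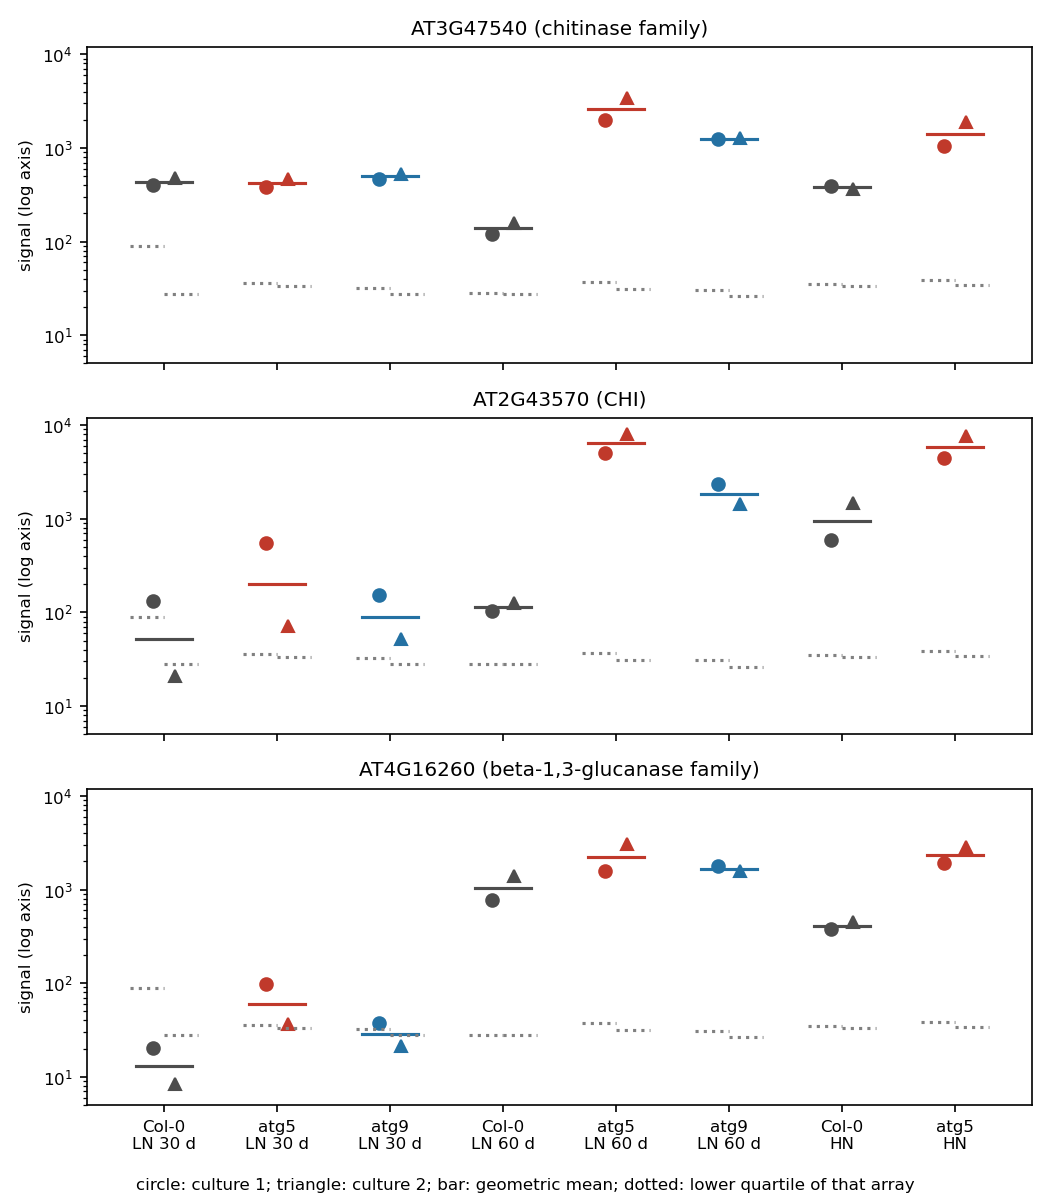
Signals of the 3 genes on each of the 16 arrays, on a log axis, by group, with LN for low nitrate, HN for high nitrate and d for days. Circles are culture 1, triangles culture 2, bars geometric means of 2 arrays, and dotted lines the lower quartile of all signals on that array. AT3G47540 and CHI are low in Col-0 and high in atg5 and atg9 at 60 days, whereas AT4G16260 is high in all 3 genotypes at 60 days and low in all 3 at 30 days.

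Set side by side, AT3G47540 and AT4G16260 had opposite signs with age in Col-0 and the same sign in both mutants. The age difference was -1.65 for AT3G47540, 1.13 for CHI and 6.33 for AT4G16260 in Col-0. It was 2.62, 5.0 and 5.22 in atg5, and 1.34, 4.36 and 5.87 in atg9. The age difference in atg5 minus that in Col-0 was 4.26 ± 0.36 for AT3G47540, 3.87 ± 1.29 for CHI and -1.11 ± 0.79 for AT4G16260. For AT4G16260 it became 0.03 with 32 added. In atg9 the same quantity was 2.99 ± 0.36 for AT3G47540, 3.24 ± 1.29 for CHI (2.15 without the 2 arrays that stand apart) and -0.45 ± 0.79 for AT4G16260 (0.25 with 32 added and -1.04 without those arrays). Over the 16 arrays the log2 signals of CHI had a Pearson r of 0.825 with AT4G16260 and 0.750 with AT3G47540, while AT3G47540 and AT4G16260 had an r of 0.433. These arrays share genotypes, ages and cultures, so the coefficients only describe them.

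**Figure D2:**
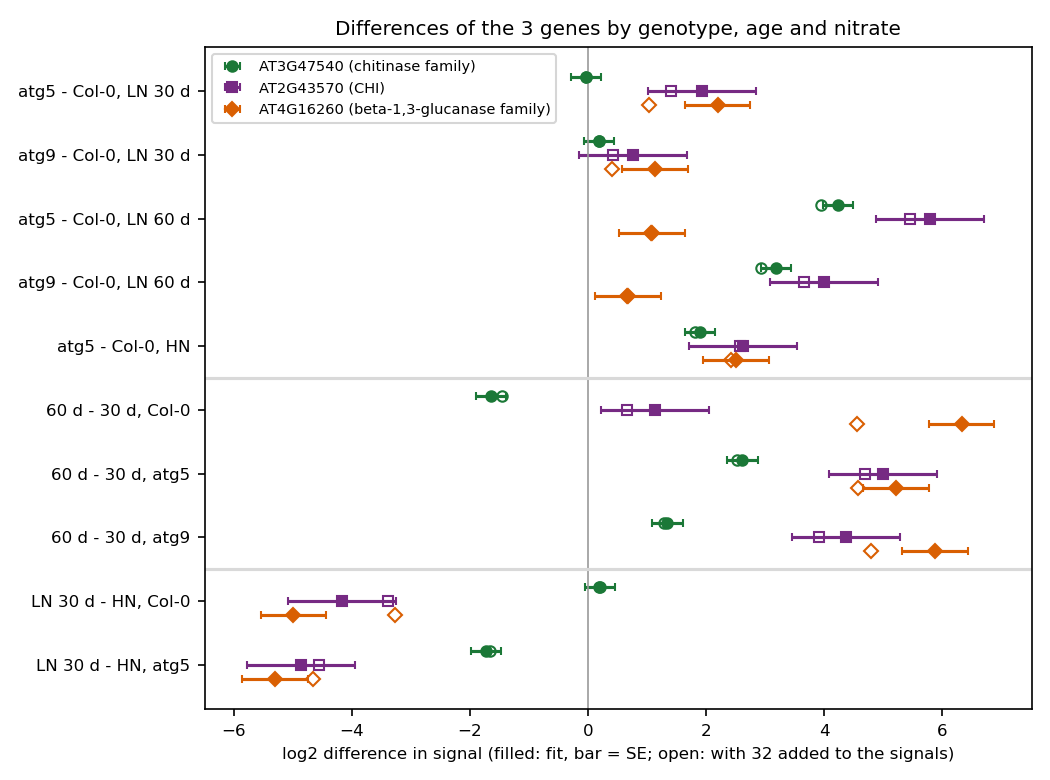
Log2 differences in signal of the 3 genes for 10 comparisons of genotype, age and nitrate. Filled symbols with bars are the fitted difference and its SE, and open symbols the difference with 32 added to the signals. Between 60 and 30 days AT3G47540 is at -1.65 and AT4G16260 at 6.33 in Col-0, and at 1.34 and 5.87 in atg9.

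With nitrate, CHI and AT4G16260 were lower on LN at 30 days than on HN in Col-0, whereas AT3G47540 was nearly level. The 30-day Col-0 arrays are among those on which the genes were chosen, so these values are a description with no test. The log2 difference, LN at 30 days minus HN, was -4.99 ± 0.56 for AT4G16260 and -3.28 with 32 added. For CHI it was -4.16 ± 0.91, and for AT3G47540 0.20 ± 0.26. CHI and AT4G16260 were lower in both cultures, and for neither did the groups overlap. The differences were -5.58 for AT4G16260 and -5.25 for CHI when the 2 arrays that stand apart were omitted. CHI gave -3.0 without Col-0, LN, 30 days, culture 2 and -3.06 without Col-0, HN, culture 2.

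Because the labels disagree on the age of the HN plants, nitrate and age cannot be told apart in this comparison. Set against LN at 60 days instead, LN minus HN in Col-0 was -1.45 for AT3G47540, -3.03 for CHI and 1.33 for AT4G16260. AT4G16260 thus had the opposite sign against the older plants. In atg5, LN at 30 days minus HN was -1.73 for AT3G47540, -4.86 for CHI and -5.30 for AT4G16260, and LN at 60 days minus HN was 0.88, 0.14 and -0.08. The difference between culture 2 and culture 1, which did not enter the choice of genes, was 0.33 for AT3G47540, -0.60 for CHI and -0.12 for AT4G16260, and none passed (limma adjusted p = 0.400, 0.660 and 0.890, with 0.022% of probe sets passing at an adjusted p at or under 0.05). Each value is an average over the groups. For CHI, culture 2 was below culture 1 in every 30-day LN group and in atg9 at 60 days, and above it in the others. A culture difference limited to some groups was not tested.

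Other genes of both families were examined from lists of 22 further chitinase genes and 49 further glucanase genes. A named probe set was present for 13 chitinases and 39 glucanases. Among the listed glucanases without one were AT3G57260, AT3G57270 and AT3G57240, so they were not analysed here. The filter on mean signal left 3 chitinases and 19 glucanases tested, and the other 10 and 20 were dim. The 3 genes described above all passed that filter. A gene passed a test at a Benjamini-Hochberg adjusted p at or under 0.05.

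In atg5 against Col-0 at 60 days, 2 of the 3 other chitinases rose, where 5.83% of all probe sets passed, 3.96% as higher and 1.86% as lower. ChiC (AT4G19810), a class V chitinase, gave 66.9 and 80.4 in Col-0 and 462.5 and 332.8 in atg5, a log2 difference of 2.42 ± 0.39 (limma adjusted p = 0.00605). AT4G01700 gave 97.2 and 216.1 in Col-0 and 458.9 and 1274.2 in atg5, a difference of 2.40 ± 0.46 (limma adjusted p = 0.0119). Without the 2 arrays that stand apart, ChiC had an adjusted p of 0.0552 and AT4G01700 one of 0.0268. AT2G43590 differed by 1.55 ± 0.67 (adjusted p = 0.190), and by 2.63 (adjusted p = 0.0386) without these arrays, so that it then passed. The median over the 3 was 2.40, against -0.14 over all probe sets tested.

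The 19 other glucanases tested did not share this pattern. One of 19 passed in atg5 against Col-0 at 60 days, AT2G05790, which fell by 0.98 ± 0.26 (limma adjusted p = 0.0474, and 0.140 without the 2 arrays). The median over the 19 was -0.41, and 14 of them had negative differences. Over all probe sets tested the median was -0.14, so negative differences were the more common there too. The call count for both families together was 3 in this comparison and 0 without Col-0, LN, 60 days, culture 1. It was 1 without atg5, LN, 60 days, culture 1, and 5 without either array of Col-0, LN, 30 days.

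In atg9 against Col-0 at 60 days none of the 22 passed, where 0.044% of all probe sets did. The chitinases AT4G01700 and ChiC, which had the smallest p, differed by 1.53 ± 0.46 and 1.12 ± 0.39 (limma adjusted p = 0.406 and 0.656). At an unadjusted p under 0.05, 2 chitinases and 0 glucanases would count, as would 642 of all 13648 probe sets tested. On HN none of the 22 passed in atg5 against Col-0 either, where 0.169% of probe sets did. AT4G01700 differed by 2.02 ± 0.46 (limma adjusted p = 0.119) and ChiC by 2.00 ± 0.39 (adjusted p = 0.0776), both higher in atg5 on both arrays. There 2 chitinases and 2 glucanases had an unadjusted p under 0.05, as had 1099 of all 13648 probe sets tested.

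At 30 days none of the 22 passed in atg5 or in atg9 against Col-0, where 0% and 0.00733% of probe sets did. At unadjusted p under 0.05, 2 glucanases counted in atg5 and none of 22 in atg9, where 960 and 810 of 13648 probe sets did. Without Col-0, LN, 30 days, culture 2 the count was 1 in each mutant. The dim chitinase AT1G02360 was outside the tested set. Its signals at 60 days were 19.0 and 23.7 in Col-0, 201.5 and 314.8 in atg5, and 124.7 and 71.0 in atg9. Fitted with no filter, atg5 minus Col-0 was 3.57 ± 0.65 (limma adjusted p = 0.00946). At that age it exceeded the lower quartile of the array in both mutants and lay below it in Col-0, whereas at 30 days Col-0 gave 155.6 and 39.7.

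With age, most of the other glucanase genes tested had lower signals, 15 of 19 in Col-0 and 17 of 19 in each mutant, while AT4G16260 was higher. In Col-0, 1 of 19 rose and 2 fell, where 11.6% of all probe sets passed, 6.95% as higher and 4.67% as lower. AT3G04010 rose by 2.60 ± 0.63 (limma adjusted p = 0.0257), from 14.4 and 47.4 to 137.8 and 182.9. The signal of 14.4 lay below the lower quartile of its array, 89.1. The geometric mean of AT3G04010, 98.2, was just over the filter limit of 93.9. All its 30-day LN signals were under that limit, so it was tested only through groups where it was higher. AT5G42720 fell by 1.65 ± 0.36 (adjusted p = 0.0179) and AT4G29360 fell by 1.12 ± 0.33 (adjusted p = 0.0467). All 3 calls were lost without the 2 arrays that stand apart, with differences of 1.53, -1.57 and -0.65. With 32 added AT3G04010 differed by 1.65. The count was also 0 without Col-0, LN, 30 days, culture 1 and without Col-0, LN, 60 days, culture 1. It was 1 without culture 2 of the latter group and 1 without atg5, HN, culture 1. No other chitinase passed in Col-0, and 1 of the 3 had an unadjusted p under 0.05, as had 4154 of all 13648 probe sets.

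In atg5, 2 glucanases rose and 8 fell with age, where 25.9% of all probe sets passed, 12.6% as higher and 13.3% as lower. AT5G55180 fell by 1.69 ± 0.29 (limma adjusted p = 0.00269), and AT1G66250, AT4G29360 and AT2G05790 fell by 1.24, 1.55 and 1.21. AT3G04010 and AT2G26600 rose by 2.45 ± 0.63 and 0.97 ± 0.23, the former again from 30-day signals under the filter limit. Of the other chitinases, AT4G01700 rose by 1.75 ± 0.46 (adjusted p = 0.0167) and ChiC by 1.58 ± 0.39 (adjusted p = 0.0135, and 0.0978 without the 2 arrays). The 12 calls of both families numbered 3 without atg5, LN, 30 days, culture 2, 6 without culture 1 of that group and 5 without atg5, LN, 60 days, culture 1.

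In atg9, 1 glucanase rose and 4 fell with age, where 22.1% of all probe sets passed, 13.5% as higher and 8.61% as lower. AT2G26600 rose by 1.10 ± 0.23 (limma adjusted p = 0.00716), and AT4G29360, AT5G42720, AT3G07320 and AT1G11820 fell by 1.43, 1.55, 1.45 and 0.93. AT4G01700 rose by 1.41 ± 0.46 (adjusted p = 0.0459), and that call held in 7 of 16 fits that each left out 1 array. The 6 calls of both families were 11 without the 2 arrays that stand apart. They were 3 and 1 without the atg9, LN, 30 days, arrays of cultures 1 and 2, and 2 and 1 without those at 60 days.

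AT4G29360 and AT5G42720 fell in all 3 genotypes, although without the 2 arrays that stand apart both lost the call in Col-0 and AT5G42720 also lost it in atg5 (limma adjusted p = 0.131). The median age difference over the 19 glucanases was -0.60 in Col-0, -0.98 in atg5 and -0.74 in atg9, against 0.08, -0.03 and 0.13 over all probe sets tested. A test of whether age acted otherwise in the mutant than in Col-0 called none of the 22, in atg5 or in atg9, where 0.161% and 0.00733% of probe sets passed. ChiC came nearest, at 2.67 ± 0.56 for atg5 (limma adjusted p = 0.0714). In that test 2 chitinases and 4 glucanases had an unadjusted p under 0.05 for atg5, and 1 chitinase and 0 glucanases for atg9. Of all 13648 probe sets tested, 1953 and 630 had one. AT4G01700 differed by 1.5 ± 0.65 for atg5 (adjusted p = 0.326).

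**Figure D3:**
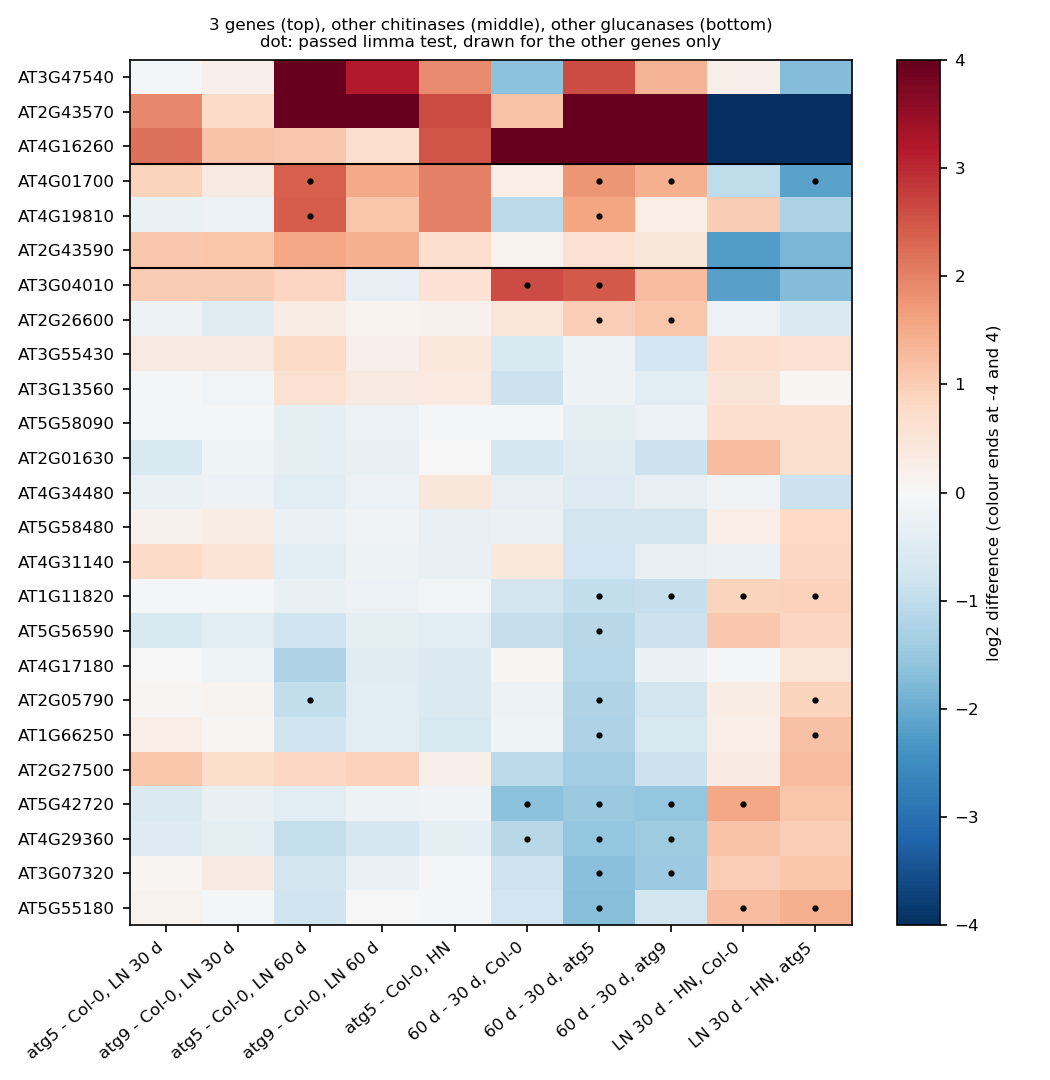
Log2 differences of the 3 genes (top), 3 other chitinases (middle) and 19 other glucanases (bottom) in 10 comparisons, with red for higher, blue for lower and colour ending at -4 and 4. Dots mark tests that passed and are drawn for the other genes only. Many glucanases are blue with age where AT4G16260 is red, and ChiC and AT4G01700 are red in atg5 against Col-0 at 60 days.

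Among the other family genes, 3 glucanases were higher in Col-0 on LN at 30 days than on HN, where 8.06% of all probe sets passed, 3.32% as higher and 4.74% as lower. AT5G42720 differed by 1.55 ± 0.36 (limma adjusted p = 0.0276), AT5G55180 by 1.24 ± 0.29 (adjusted p = 0.0281) and AT1G11820 by 0.88 ± 0.25 (adjusted p = 0.0496). None remained without the 2 arrays that stand apart. The count was 0 without Col-0, LN, 30 days, culture 1 and without either HN array of Col-0, and 7 without Col-0, LN, 30 days, culture 2. It was 6 and 7 without the atg5, LN, 60 days, arrays of cultures 1 and 2. AT2G43590 was the chitinase with the smallest p, at -2.24 ± 0.67 (adjusted p = 0.0603), and all 3 chitinases had an unadjusted p under 0.05. Of all 13648 probe sets tested, 3707 had one.

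In atg5 on the same nitrate comparison, where 12.4% of probe sets passed, 5.13% as higher and 7.32% as lower, the chitinase AT4G01700 fell by 2.15 ± 0.46 (limma adjusted p = 0.0137). The glucanases AT5G55180, AT1G66250, AT1G11820 and AT2G05790 were higher by 1.41, 1.17, 0.91 and 0.90. These 5 calls were 13 without the 2 arrays that stand apart. The count was 0 without atg5, HN, culture 2 and without atg5, LN, 30 days, culture 2, and 9 without either array of Col-0, LN, 30 days. It was 1 without atg5, LN, 30 days, culture 1 and 3 without either array of Col-0, LN, 60 days. The glucanases named thus had the opposite sign to AT4G16260 and CHI, and AT4G01700 had the same sign. The median over the 19 glucanases was 0.82, against 0.01 over all probe sets tested. Of all 19 glucanases 16 had positive and 3 negative differences. AT3G04010 was among the negative ones, at -1.75 ± 0.63, and did not pass (limma adjusted p = 0.0926).

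CHI is the first of 6 chitinase genes that follow each other as protein-coding genes on chromosome 2 in the TAIR10.1 annotation. Of the 5 beside it only AT2G43590 was tested. Its signals at 60 days were 111.7 and 59.6 in Col-0, 122.4 and 467.4 in atg5, and 241.7 and 197.1 in atg9, and on HN they were 387.8 and 314.0 in Col-0 and 666.8 and 462.1 in atg5. AT2G43580 ran from 2.7 to 103.3 over the 16 arrays and AT2G43600 from 1.1 to 39.4, the latter below the lower quartile on 15 arrays. AT2G43610 ran from 19.1 to 148.5 and AT2G43620 from 29.3 to 174.8. CHI itself ran from 21.1 to 8056.2, and these levels cannot be compared between genes.

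**Figure D4:**
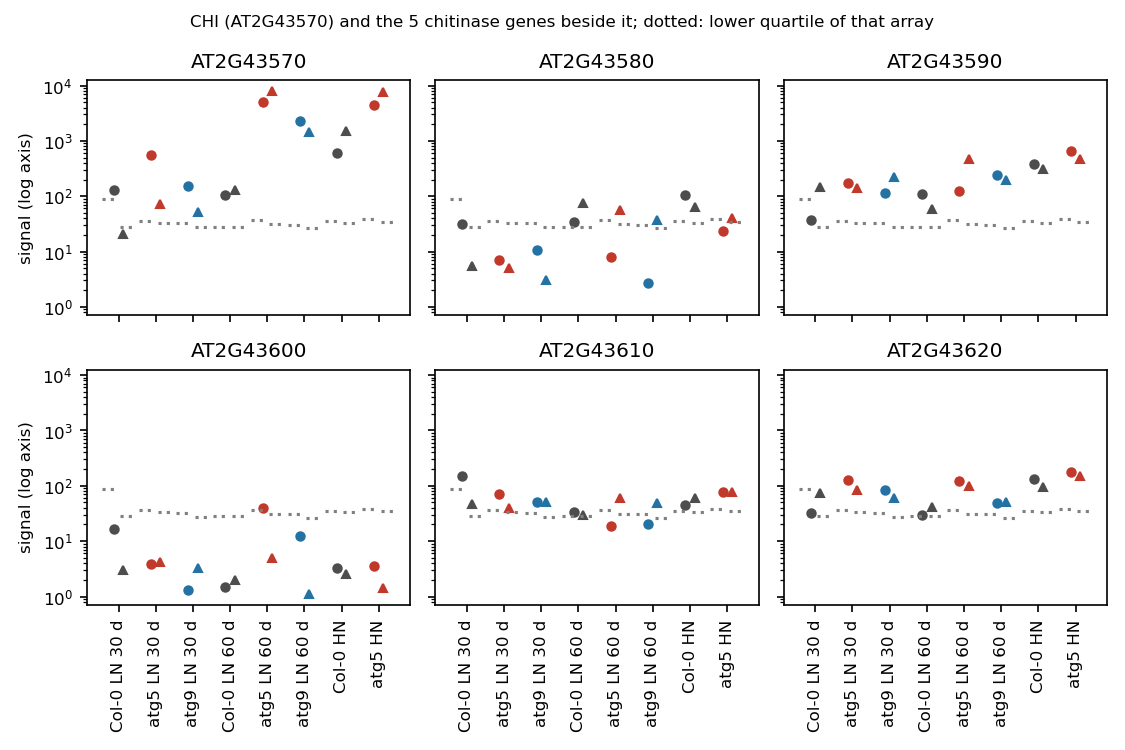
Signals of CHI (AT2G43570) and the 5 chitinase genes beside it on the 16 arrays, on a log axis. Grey is Col-0, red atg5 and blue atg9, circles are culture 1, triangles culture 2, and dotted lines the lower quartile of each array. Each panel is read on its own: CHI has its highest signal, 8056.2, in atg5 at 60 days, and AT2G43590 its highest, 666.8, in atg5 on HN.

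Other genes around these enzymes were sparsely covered. Of 14 further pathogenesis-related and salicylic acid genes 4 had a named probe set, and all 4 were tested. OSM34, an osmotin-like protein of the thaumatin family, rose in atg5 against Col-0 at 60 days by 4.08 ± 0.83 (limma adjusted p = 0.0173, and 0.149 without the 2 arrays that stand apart). With age OSM34 rose in atg5 and atg9 by 4.26 and 5.82, and in Col-0 it differed by 2.72 (adjusted p = 0.0553). Its signals at 30 days were low, 7.0 and 27.4 in Col-0 and 4.0 and 38.5 in atg9, and with 32 added the age differences were 3.79, 3.86 and 1.36 in atg5, atg9 and Col-0.

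PDF1.2 and PDF1.2b, plant defensins that mark the jasmonate and ethylene response, rose with age in all 3 genotypes. PDF1.2 rose by 5.80 in Col-0, 3.15 in atg5 and 5.72 in atg9 (limma adjusted p = 0.00256, 0.0142 and 0.00126), and PDF1.2b by 5.54, 3.31 and 5.87. Without the 2 arrays that stand apart PDF1.2b missed the threshold in atg5 (adjusted p = 0.0721). The probe set of PDF1.2b may bind transcripts of related genes. GRX480, a glutaredoxin induced by salicylic acid and the last of the 4, passed in no comparison. PDF1.2 was lower on LN at 30 days than on HN in atg5, at -2.81 ± 0.79 (limma adjusted p = 0.0397). In Col-0 the same difference of PDF1.2 was -2.42 ± 0.79 and did not pass (limma adjusted p = 0.0758). On LN at 30 days OSM34 was lower than on HN in Col-0 by a log2 difference of -4.44 ± 0.83 (limma adjusted p = 0.0115, 0.0901 without the 2 arrays, and a difference of -2.80 with 32 added) and in atg5 by -4.79.

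Of 13 genes of chitin perception 3 had a probe set and 2 were tested, the receptor-like cytoplasmic kinase BIK1 and the transcription factor WRKY53, and neither passed in any comparison. WRKY53, known for a role in leaf senescence, differed by 2.77 ± 0.98 in atg5 against Col-0 at 60 days (limma adjusted p = 0.115). With age in atg5 it differed by 2.59 ± 0.98 (adjusted p = 0.0724). For age in atg5 BIK1 and WRKY53 both had an unadjusted p under 0.05, as had 5369 of all 13648 probe sets tested. Of 12 callose synthase genes, whose product beta-1,3-glucanases degrade, none had a named probe set, so they were not analysed here.

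The genes with patterns most like each of the 3 were ranked by Pearson r of log2 signal over the 16 arrays, among 7248 genes. For AT3G47540 they were AT5G52810 (r = 0.926), AT4G35110 (0.915), AT2G15220 (0.906), Hsp70-2 (0.900), a cytosolic-type heat shock chaperone, and ATG8H (0.893), one of the ATG8 proteins that coat autophagosome membranes. ATG8H ran from 191.4 to 4942.5. The probe set of AT2G15220 may bind transcripts of related genes.

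For CHI the closest were AT1G13470 (r = 0.979), AT3G60420 (0.975), AT2G18690 (0.974), AT4G25390 (0.962) and AT3G51660 (0.961). For AT4G16260 they were AT2G23680 (r = 0.964), pEARLI4 (0.957), AT3G01170 (0.955), AT4G17900 (0.955) and AT2G28940 (0.954). The 3 sets of 5 had no gene in common. The 16 arrays are 8 groups of replicates, so a high r describes the group pattern and carries no p.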

How the data were processed

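The table deposited by the authors holds signal intensity values made with MAS5 (no version named), per the submitters' processing notes. It lists 22810 probe sets on 16 arrays on a linear scale, without detection calls, and the number of arrays limits precision. The 3 genes and all gene lists were chosen with earlier results of these data known, so none is independent support.

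Signals under 1 were set to 1, log2 was taken, 64 control probe sets were left out, and probe sets under the 40th percentile of mean log2 signal (a geometric mean of 93.9) were filtered, leaving 13648 of 22746. limma 3.58.1 in R 4.3.3 (lmFit, eBayes with trend) fitted 8 group means with culture as a block (7 residual degrees of freedom), two-sided, adjusted by Benjamini-Hochberg over 13648 per comparison at a threshold of 0.05. The labels give the culture as the replicate number and say the cultures were grown apart in time. Same-culture deviations correlated at -0.159 to 0.686 over 28 pairs of groups, over 0.1 in 8. The test was tried on simulated data: for atg5 against Col-0 at 60 days it recovered 15 of 67 changes of log2 size 1, 48 of 67 of size 2 and 64 of 66 of size 4. The simulated noise was independent between arrays and had no culture effect, so these counts describe the test only in that setting. False calls are not given here.

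Named genes were the 3 genes, up to 4 passing per list, comparison and direction by smallest p, where none passed the 2 with the smallest p, and the 5 closest by r. AT1G02360, and values quoted for a named gene in other comparisons, were chosen after values were seen. The annotation gives 1 gene to 13513 probe sets, several to 503 and does not list 8730, and 13484 were matched by locus to the TAIR10.1 gene table, used for names and gene order. Sequences were not used here, so the planned search of promoter motifs was not run. Alternatives were no block, quantile normalization, no filter, 32 added, no trend, each array left out, and the 2 arrays that stand apart left out. The nitrate difference of the 3 genes in Col-0 was planned as a test and is given as a description, because its 30-day arrays entered the choice of genes.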

Additional observations from a re-analysis of the deposited data

Results flagged for a closer look

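For AT3G47540 the differences of both cultures had one sign in 1 group and the opposite sign in another, in 5 comparisons. Where the second difference was 0.20 or -0.04 it was smaller than its SE of 0.26, so no turn in direction is shown there. The age difference was 2.62 in atg5 against -1.65 in Col-0, apart by 4.26, and 1.34 in atg9 against -1.65 in Col-0, apart by 2.99. LN at 30 days minus HN was -1.73 in atg5 and 0.20 in Col-0, apart by -1.93. The genotype difference atg5 minus Col-0 was 4.23 at 60 days against -0.04 at 30 days, apart by 4.26, and 1.89 on HN against -0.04, apart by 1.93. These differences were not tested, since the gene was chosen on them. For ChiC (AT4G19810) the age difference was 1.58 in atg5 against -1.09 in Col-0, apart by 2.67 ± 0.56, which did not pass (limma adjusted p = 0.0714). With 2 arrays a group, no array could be set apart from its group.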

How the results depend on the processing

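Alternatives here include single-array omissions, the omission of 2 arrays and the swap to 60-day LN. Over all of them, 814 values of the 3 genes and family counts stayed, 59 moved and 4 turned sign. The other 3, all of CHI with nitrate in Col-0, were -3.0, -3.06 and -3.03. The sorting of nitrate values in Col-0 used the planned test that is not given here, so it carries no weight for them. Of the 4 turns in sign, 2 came from that swap and 2 from leaving out Col-0, LN, 30 days, culture 2. Replacing 30-day by 60-day LN in the Col-0 nitrate comparison gave -1.45 (AT3G47540), -3.03 (CHI) and 1.33 (AT4G16260). With 32 added AT4G16260 gave 1.03 and 0.41 for atg5 and atg9 minus Col-0 at 30 days and 4.55, 4.58 and 4.80 with age in Col-0, atg5 and atg9, and by quantile normalization atg9 minus Col-0 at 30 days was 1.90. Without the 2 arrays that stand apart family counts were 0 (age, Col-0), 11 (age, atg9), 0 (nitrate, Col-0) and 13 (nitrate, atg5).

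With the replicate block left out, the family count for nitrate in atg5 was 3 instead of 5, and no call or count of the 3 genes or the other family comparisons changed by over 1.5 times. Leaving out 1 array at a time, CHI ranged from 0.57 to 3.28 for atg5 and from -0.41 to 1.92 for atg9 minus Col-0 at 30 days, from -0.038 to 2.29 and from 3.65 to 6.35 with age in Col-0 and atg5, and from -5.33 to -3.0 for nitrate in Col-0. AT4G16260 ranged from 1.45 to 2.93 for atg5 and from 0.46 to 1.80 for atg9 minus Col-0 at 30 days, and from 5.66 to 6.99 and from 4.48 to 5.96 with age in Col-0 and atg5. Family counts ranged from 0 to 1 in both mutants at 30 days, 0 to 5 in atg5 at 60 days, 0 to 4, 3 to 15 and 1 to 8 with age in Col-0, atg5 and atg9, and 0 to 7 and 0 to 9 with nitrate in Col-0 and atg5. The cause was not tested. Each gene has 1 probe set, so no other could be tried. Signals below an array's lower quartile limit the folds against 30-day AT4G16260 in Col-0 and atg9.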
